A study of Rattus norvegicus with 9 samples.

Results

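The genes described here encode subunits of respiratory complex III (ubiquinol-cytochrome c reductase), complex IV (cytochrome c oxidase) and ATP synthase in dendrites of the rat. They were chosen by symbol. A gene entered when its current or older symbol began with Cox followed by 4 to 8, with Uqcr or with Atp5, or when it was Cyc1, Cycs, or the mitochondrial COX1 or COX2, and when a probe set named it alone. This gave 43 genes on 48 probe sets, of 14217 measured genes on 31042 probe sets: 8 genes of complex III, 19 of complex IV and 16 of ATP synthase. The arrays came from hippocampal pyramidal neurons of Sprague-Dawley embryos, which were collected on embryonic day 19, and the cells had grown for 14 days. Severed dendrites were collected in pools of 100, 200 and 400, with 3 arrays at each pool size and 9 arrays in all. All pools were of untreated cells and no genotype or agent differed between them. The RNA was amplified before hybridisation. By the methods, thin axons could not be told from dendrites when pools were collected. The labels call the 3 arrays of a pool size biological replicates without saying whether they came from separate cultures or animals, so a p-value measures only the spread between these arrays. In pools of this kind, fewer processes that carry a transcript and less of it per process cannot be told apart.

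Complex III passes electrons from ubiquinol to cytochrome c, and complex IV passes them on to oxygen. Both pump protons across the inner mitochondrial membrane, and ATP synthase uses the return of those protons to make ATP. Most subunits are encoded in the nucleus, while the catalytic subunits of complex IV are encoded by mitochondrial DNA and transcribed inside the organelle. Several complex IV subunits exist as a widely used form and a form known from heart, skeletal muscle, lung or testis. In dendrites, mitochondria supply ATP and buffer calcium near synapses.

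Signals are log2 values of robust multi-array averaging, and for each gene they are also given as a percentile. For this, the median of the gene's ranks on the 9 arrays was itself ranked among the 14217 genes. Where a percentile on a single array is given, it is the rank on that array. A percentile is a rank of array signal and depends on how well a probe set binds, so it does not measure how many transcripts of one gene there are relative to another. The array medians lay between 7.46 and 7.53, and pairwise Pearson correlations of gene values between arrays were 0.672 to 0.869. The first array of the pools of 400 had the lowest mean correlation with the other arrays, 0.743, and also the lowest weight when limma weighted arrays by their fit, 0.456, against up to 2.41 for the third array of that size. Of the markers of pyramidal neurons and dendrites, 9 of 10 lay above the 50th percentile, among them Nrgn at 99.4 and Dlg4 at 98.2, while Camk2a was at 26.3. Of the 8 astrocyte markers, 5 lay above the 50th percentile, Gfap at 86.0 and S100b at 91.1 among them. Slc1a2 was at 14.3 and Aqp4 at 7.38. Of the 8 microglial markers, 2 lay above the 50th percentile. So did 6 of 7 measured oligodendrocyte markers, with Olig2 at 81.6, while Cnp was at 23.2, and their part in the values below was not tested. The mean signal of the astrocyte list was 8.01 to 8.87 on the arrays of 100, 7.07 to 8.57 on those of 200 and 7.31 to 8.63 on those of 400, and its part in the values below was not tested.

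As a group the subunit genes gave strong signals. Of the 43 genes, 37 lay above the 50th percentile, their median percentile was 90.5, and 15 (34.9%) were among the top 5% of genes, a class that held 712 of the 14217 genes (5.01%). The complexes differed in this as a description. Complex IV had a median percentile of 94.5 with 9 of 19 genes in the top 5%, ATP synthase had 89.3 with 4 of 16, and complex III had 80.5 with 2 of 8. Without its 6 tissue-restricted forms and a pseudogene, complex IV had 9 of 12 genes in the top 5% and a median of 99.4. The plot of signals by gene shows how far the genes of each complex were spread.

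**Figure D1:**
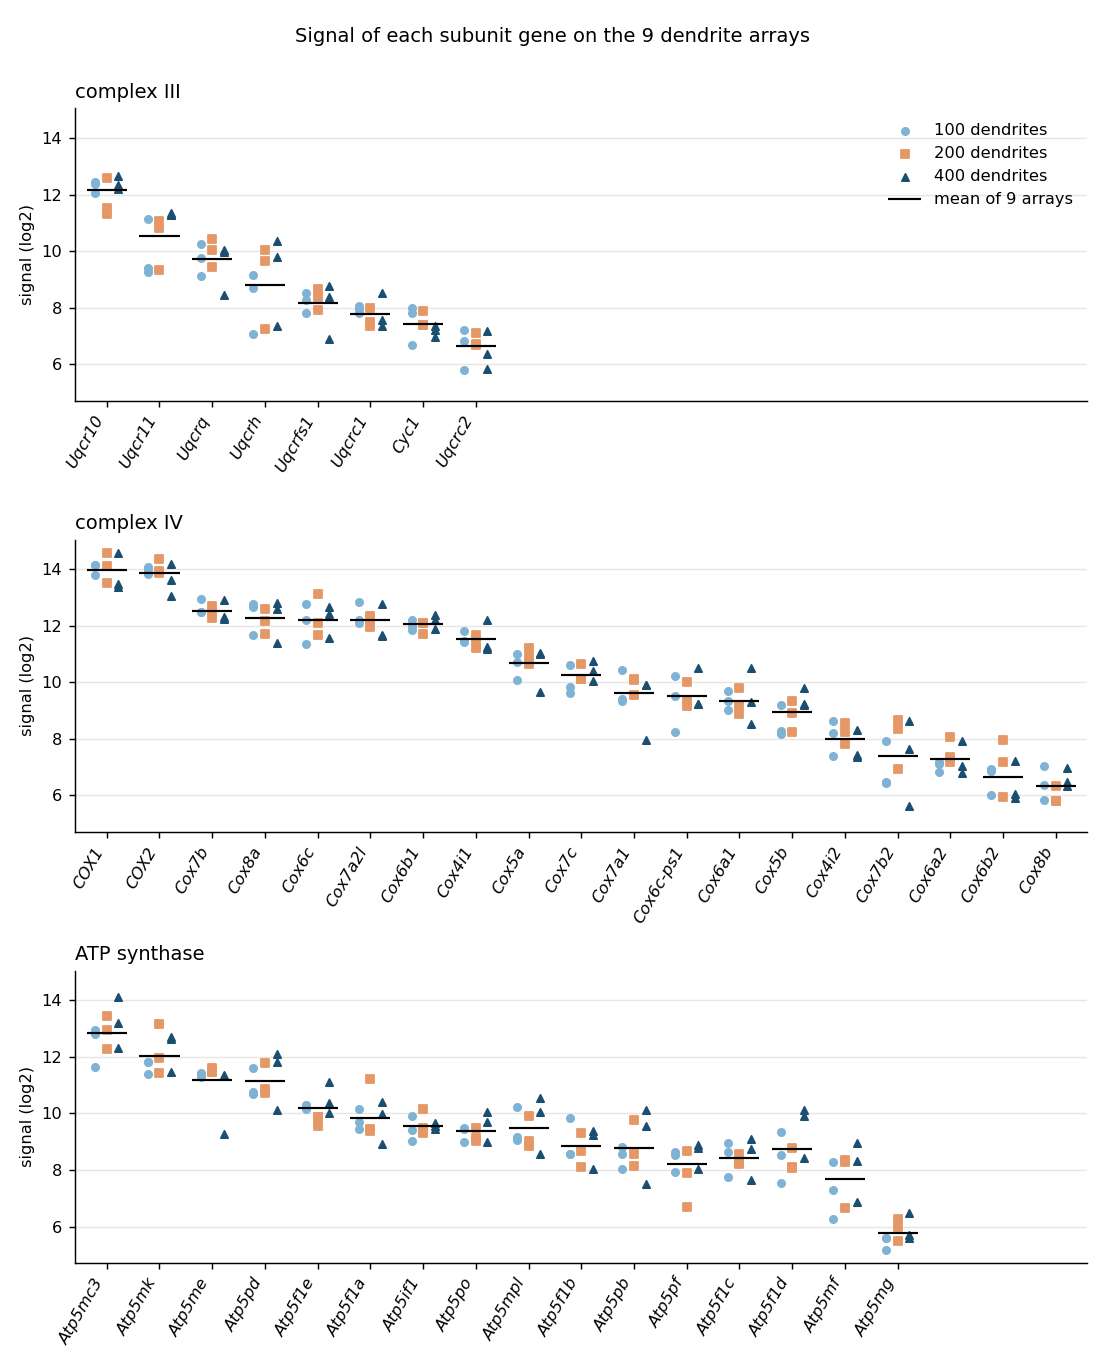
Signal (log2, vertical axis) of each of the 43 genes, ordered by percentile within complex III, complex IV and ATP synthase. Points are single arrays, 3 for each pool of 100, 200 and 400 dendrites, and bars are means of the 9 arrays. COX1 and COX2 average 13.97 and 13.87, and Atp5mg is the lowest of all at 5.77.

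Nuclear respiratory genes are known to share promoter sites for the factors NRF-1, GABP (also called NRF-2) and YY1, and a stretch of promoter is shown for genes from each complex so that the sites can be seen beside the signals. RefSeq promoters of the GRCr8 build, from 250 bases before to 50 after the start of the gene, were matched for 34 of the 43 genes. The letters searched on both strands were GCGCATGCG for NRF-1, CCGGAAG for GABP and AAGATGGCG for YY1. The NRF-1 letters can match both strands over the same bases, because the core is close to its own reverse complement. In the lines below, in the direction of the gene, capitals mark each match or its reverse complement.
Atp5me, chr14:1464774-1464865, plus strand: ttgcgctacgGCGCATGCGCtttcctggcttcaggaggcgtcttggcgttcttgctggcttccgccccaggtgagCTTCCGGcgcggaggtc
Atp5po, chr11:44657523-44657552, minus strand: acgccgacgcGCGCATGCGCtctggcatca
Atp5mg, chr8:54130607-54130657, minus strand: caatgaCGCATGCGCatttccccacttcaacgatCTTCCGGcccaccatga
Atp5pf, chr11:37375169-37375222, minus strand: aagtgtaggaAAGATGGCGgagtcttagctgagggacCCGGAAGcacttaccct
Cox8a, chr1:213833626-213833690, minus strand: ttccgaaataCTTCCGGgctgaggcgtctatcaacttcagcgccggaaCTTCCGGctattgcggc
Cox4i1, chr19:65630376-65630422, plus strand: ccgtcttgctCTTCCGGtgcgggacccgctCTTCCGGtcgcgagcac
Uqcrc1, chr8:118468174-118468240, plus strand: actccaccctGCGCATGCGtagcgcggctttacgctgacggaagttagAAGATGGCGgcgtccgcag
Uqcrc2, chr1:184599113-184599228, plus strand: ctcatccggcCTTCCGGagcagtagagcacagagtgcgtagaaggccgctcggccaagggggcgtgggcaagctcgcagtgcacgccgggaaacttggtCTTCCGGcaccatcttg

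Any of the 3 motifs was found in 14 of the 34 promoters (41.2%), against 19.5% of the 11700 promoters of measured genes and 12% of all 27457 promoters of the same length. The GABP letters were in 11 of 34 (32.4%), against 15.1% of measured genes' promoters and 9.22% of all promoters. The NRF-1 letters were in 4 (11.8%), against 2.83% and 1.66%, and the YY1 letters in 3 (8.82%), against 3.14% and 1.93%. By complex, a motif was present for 4 of 6 genes of complex III, 3 of 13 of complex IV and 7 of 15 of ATP synthase. The motifs were found at both ends of the range of signals. Atp5mk (99.1), Cox8a (99.6) and Cox4i1 (98.4) carried the GABP letters, and so did Uqcrc2 (23.5) and Atp5mg (3.85), the numbers being percentiles. A match is a run of letters and not a measured binding site.

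In complex III the catalytic and core subunits gave low to middling signals and the small subunits high ones. This grouping was made after the values were seen. The catalytic and core genes were Uqcrfs1, the Rieske iron-sulfur protein, at the 73.1 percentile, Uqcrc1, core subunit 1, at 58.1, Cyc1, which carries the haem of cytochrome c1, at 43.8, and Uqcrc2, core subunit 2, at 23.5. The small subunits were Uqcr10 at 99.6, Uqcr11 at 97.2, Uqcrq at 93.1 and the hinge protein Uqcrh at 87.8. The median percentile was 51.0 over the 4 catalytic and core genes and 95.1 over the 4 small ones. Complex I, the entry point for electrons from NADH, showed the same order, in a split that was not planned either. Its median was 24.3 over 6 measured core subunits and 83.6 over the other 30, Ndufa4 among them. Ndufs1, the largest iron-sulfur subunit of complex I, stood at 3.76 and Ndufb4, an accessory subunit, at 99.3.

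Uqcr10 gave signals of 12.06, 12.43 and 12.37 in the pools of 100, 11.51, 11.32 and 12.59 in those of 200, and 12.34, 12.67 and 12.21 in those of 400. Uqcr11 gave 9.40, 9.28 and 11.12 in the pools of 100, 10.81, 9.32 and 11.06 in those of 200, and 11.27, 11.27 and 11.35 in those of 400. Uqcr11 therefore held a narrow range in the largest pools, above every array of both smaller sizes, while 3 arrays of the smaller pools lay close to 9.3. Uqcrq gave 10.26, 9.75 and 9.12 at 100 dendrites, 9.45, 10.41 and 10.05 at 200 and 8.43, 9.95 and 10.03 at 400. Its lowest value was on the first array of 400 and the pool sizes overlapped. Cyc1 gave 7.99, 7.80 and 6.70 at 100, 7.38, 7.89 and 7.39 at 200 and 7.23, 6.96 and 7.36 at 400. Uqcrc2 gave 6.81, 7.21 and 5.81 at 100, 7.12, 6.70 and 6.70 at 200 and 7.18, 5.82 and 6.36 at 400, and its 2 probe sets stood close together, at 28.3 and 21.9 among all probe sets. The hinge protein gene Uqcrh varied more than any other of the 43. Its signals were 9.15, 7.08 and 8.69 at 100 dendrites, 10.05, 7.23 and 9.66 at 200 and 7.36, 9.79 and 10.34 at 400. Each pool size held 1 array near 7 and others near 9 or 10, and the SD over the 9 arrays was 1.29. Uqcrb, a further small subunit, had its probe set shared with Uqcrbl1 and is counted in no group. That probe set averaged 12.73 ± 0.56 (SD, n = 9).

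The mitochondrially encoded catalytic subunits of complex IV gave the strongest signals of the 43 genes. COX1 gave 13.80, 14.16 and 14.15 at 100 dendrites, 13.51, 14.10 and 14.57 at 200 and 13.48, 13.35 and 14.58 at 400. COX2 gave 13.96, 14.08 and 13.82 at 100, 14.35, 13.85 and 13.94 at 200 and 13.61, 13.03 and 14.18 at 400. Both were lowest on the second array of 400, and neither fell below the 99.7 percentile on any array. Their percentiles over the 9 arrays were 99.98 for COX1 and 99.97 for COX2. Of the nuclear subunits, Cox7b gave 12.94, 12.47 and 12.47 at 100, 12.70, 12.48 and 12.29 at 200 and 12.89, 12.29 and 12.25 at 400. Cox7b, at the 99.7 percentile, and Cox6b1 had the smallest spread of the 43 genes, with SDs over the 9 arrays of 0.26 and 0.21. Cox6c, another small nuclear subunit, stood at the 99.5 percentile, Cox5a at 96.9, Cox7c at 94.5 and Cox5b at 87.5. A further Cox5a probe set, shared with another gene and not counted, averaged 9.71 ± 0.86 (SD, n = 9). The Cox5a probe set used averaged 10.69 ± 0.50. The probe set of Cox6c-ps1, named as a pseudogene of Cox6c, stood at 89.8, below Cox6c on 9 of 9 arrays. How far the transcript of one binds the probes of the other was not tested.

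For complex IV subunits 4, 6a, 6b, 7b and 8, the tissue-restricted gene had a lower signal than the widely used gene on 9 of 9 arrays. Each pair was on different probe sets, so a gap in signal is not a ratio of transcripts. For subunit 4, the lung-enriched Cox4i2 gave 8.63, 8.22 and 7.41 at 100 dendrites, 8.23, 7.82 and 8.54 at 200 and 7.42, 8.33 and 7.37 at 400. Its widely used counterpart Cox4i1 gave 11.82, 11.43 and 11.47 at 100, 11.67, 11.47 and 11.20 at 200 and 12.22, 11.24 and 11.17 at 400. The percentiles were 69.5 for Cox4i2 and 98.4 for Cox4i1. For subunit 6a, the muscle form Cox6a2 gave 7.17, 7.12 and 6.83 at 100, 7.35, 7.16 and 8.07 at 200 and 7.93, 7.06 and 6.78 at 400. Cox6a1 gave 9.69, 9.01 and 9.34 at 100, 9.17, 8.87 and 9.80 at 200 and 8.51, 9.31 and 10.49 at 400. The percentiles were 36.7 for Cox6a2 and 88.6 for Cox6a1, and on the first array of 400 the genes stood as close as 7.93 and 8.51. For subunit 6b, the testis form Cox6b2 gave 6.00, 6.94 and 6.85 at 100, 7.97, 5.94 and 7.18 at 200 and 6.04, 5.90 and 7.20 at 400. Cox6b1 gave 11.83, 12.00 and 12.21 at 100, 12.10, 11.71 and 12.10 at 200 and 12.22, 11.87 and 12.38 at 400. The percentiles were 27.4 for Cox6b2 and 99.3 for Cox6b1, and no array of the one came near an array of the other.

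For subunit 7b, Cox7b2 ranged from 5.63 to 8.67 against a range of 12.25 to 12.94 for Cox7b. Its signals were 6.45, 7.94 and 6.47 at 100 dendrites, 8.33, 6.95 and 8.67 at 200 and 8.62, 7.64 and 5.63 at 400. With an SD of 1.08 it was second only to Uqcrh in spread, and its percentile, 51.9, was near the middle of all genes. For subunit 8, the muscle form Cox8b gave 5.83, 7.04 and 6.36 at 100, 5.81, 5.82 and 6.33 at 200 and 6.97, 6.48 and 6.33 at 400. Cox8a gave 11.68, 12.66 and 12.76 at 100, 11.72, 12.18 and 12.58 at 200 and 11.39, 12.80 and 12.58 at 400. Cox8b, at the 14.3 percentile, was the lowest gene of complex IV and Cox8a, at 99.6, one of the highest.

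Subunit 7a was the exception among the tissue-restricted forms, since Cox7a1, known from heart and skeletal muscle, gave a strong signal. Its values were 10.43, 9.41 and 9.33 at 100 dendrites, 9.54, 10.09 and 10.13 at 200 and 7.94, 9.91 and 9.89 at 400. The percentile was 92.8 over all arrays, and the first array of 400 was more than 1 log2 unit below each of the others. Cox7a2l, a relative of subunit 7a known in the mouse as a factor that joins complexes III and IV, gave 12.09, 12.85 and 12.21 at 100, 11.96, 12.33 and 12.23 at 200 and 11.65, 12.76 and 11.63 at 400. The widely used Cox7a2 had its probe set shared with Cox7a2l2, and this gave 8.98, 9.22 and 9.85 at 100, 9.21, 8.21 and 9.33 at 200 and 10.003, 8.72 and 8.96 at 400. Here the order was the other way, since Cox7a1 had the higher signal on 7 of 9 arrays, with a mean of 9.63 against 9.16 for the Cox7a2 probe set. Against Cox7a2l, at the 99.4 percentile, Cox7a1 was lower on 9 of 9 arrays. Of 12 measured striated muscle markers, 6 lay above the 50th percentile, with Casq1 at 97.6 and Tcap at 91.0, while Ckm was at 14.7 and Acta1 at 6.15. The mean signal of that list lay between 7.35 and 7.92 on all 9 arrays. The part of muscle transcripts in the Cox7a1 signal was not tested. The plot of paired genes shows these pairs array by array.

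**Figure D2:**
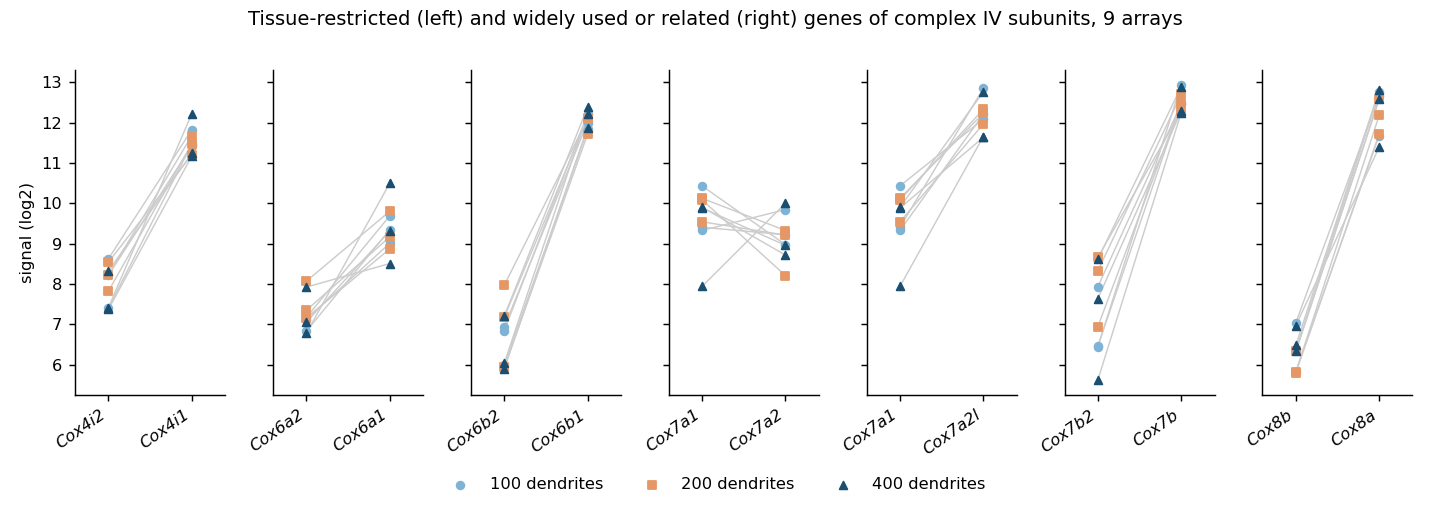
Signal (log2, vertical axis) of the tissue-restricted gene (left) and the widely used or related gene (right) of 6 complex IV subunits, with lines joining the values of 1 array. Cox7a1 is drawn against both the shared Cox7a2 probe set, where it is higher on 7 of 9 arrays, and Cox7a2l. All 9 lines rise in the other panels, and Cox7a1 is the only tissue-restricted gene with a mean above 9, at 9.63.

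Among the ATP synthase genes, those of the membrane part had the highest median percentile, 93.1 over 6 genes, but ranged from 3.85 to 99.8. The catalytic F1 head and central stalk had 80.9 over 5 genes, and the peripheral stalk, which holds the head still, 84.9 over 4. Atp5mc3, which encodes subunit c of the rotor ring, gave 11.63, 12.96 and 12.81 at 100 dendrites, 12.29, 12.94 and 13.44 at 200 and 12.30, 14.11 and 13.19 at 400. Atp5mk, a small membrane subunit also known as DAPIT, gave 11.40, 11.80 and 11.81 at 100, 11.42, 11.95 and 13.18 at 200 and 11.48, 12.63 and 12.71 at 400. Their percentiles were 99.8 for Atp5mc3 and 99.1 for Atp5mk, and both stayed above the 98th on every array. Atp5me, subunit e, whose promoter above holds the NRF-1 and GABP letters, gave 11.41, 11.38 and 11.29 at 100, 11.47, 11.59 and 11.48 at 200 and 9.26, 11.36 and 11.34 at 400. At the 98.2 percentile, it was nearly level on 8 arrays and lower only on the first array of 400. Subunit c has 3 genes that encode the same mature protein. The probe set of Atp5mc1, shared with Atp5mc1l1, gave 11.52, 11.58 and 11.91 at 100, 11.85, 11.65 and 11.81 at 200 and 11.85, 11.70 and 11.90 at 400. That of Atp5mc2, shared with Atp5mc2l1, gave 7.69, 6.30 and 7.13 at 100, 7.64, 6.87 and 7.57 at 200 and 7.45, 6.75 and 7.003 at 400. The signals of the 3 probe sets ran in the order Atp5mc3, Atp5mc1 and Atp5mc2 on their means, 12.85, 11.75 and 7.16.

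At the low end, Atp5mg, subunit g, gave 5.18, 5.61 and 5.59 at 100 dendrites, 5.48, 6.25 and 6.00 at 200 and 5.60, 6.50 and 5.69 at 400. At the 3.85 percentile it was the lowest of the 43 genes. It was read by 1 probe set, and all its signals were below the array medians of 7.46 to 7.53. How well that probe set binds the transcript was not tested. Atp5mf, subunit f, was the next lowest gene of ATP synthase at 71.0, with 8.27, 6.26 and 7.30 at 100, 8.35, 6.66 and 8.27 at 200 and 6.88, 8.94 and 8.31 at 400. In the F1 part, Atp5f1e stood at 94.5, Atp5f1a, subunit alpha, at 92.5, the catalytic subunit beta, Atp5f1b, at 80.9, Atp5f1c, subunit gamma, at 78.2 and Atp5f1d, subunit delta, at 77.3. In the peripheral stalk, Atp5pd stood at 97.03, Atp5po at 90.5, Atp5pb at 79.4 and Atp5pf at 78.3. The small membrane subunit Atp5mpl stood at 88.0, and Atp5if1, which blocks ATP hydrolysis by the enzyme, at 91.1 over 3 probe sets.

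Atp5po, the subunit that ties the stalk to the head, was measured by 2 probe sets that disagreed. Their means were 11.45 and 7.29, at 96.8 and 46.0 among all probe sets, a gap of 50.7 points. Its gene value, the middle of both, was 9.50, 9.47 and 8.98 at 100 dendrites, 9.13, 9.48 and 9.01 at 200 and 8.99, 10.06 and 9.71 at 400. The percentile of 90.5 therefore stands for neither probe set. Cytochrome c itself, Cycs, was read only by 2 probe sets that also name Cycs-ps9 and Cycsl1. The first gave 9.20, 9.10 and 9.19 at 100, 8.57, 9.00 and 8.85 at 200 and 9.30, 8.93 and 9.27 at 400. The second gave 11.81, 11.36 and 11.34 at 100, 11.57, 11.37 and 10.88 at 200 and 11.70, 11.15 and 11.06 at 400.

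The other genes of the pathway were described in the same way. Complex I, by symbol, had a median percentile of 77.3 over 36 genes with 7 in the top 5%. That list includes Ndufa4 (89.9), which is now assigned to complex IV. Complex II, which passes electrons from succinate, had 81.5 over 4 genes. Carriers of ATP and phosphate and the porins of the outer membrane had 94.2 over 6 genes, with Slc25a5, an ADP/ATP carrier, at 98.02. The median percentiles of the assembly factors were below those of the subunits they serve, at 35.6 over 6 genes for complex III, 48.1 over 20 for complex IV and 64.2 over 4 for ATP synthase. Exceptions were Cox14 at 97.2 and Tmem70 at 96.5, factors of complex IV and ATP synthase. The 11 regulators had a median of 31.4. Gabpa, which encodes the DNA-binding part of GABP, stood at 1.03 and Esrra, a nuclear receptor that acts on respiratory genes, at 99.8.

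**Figure D3:**
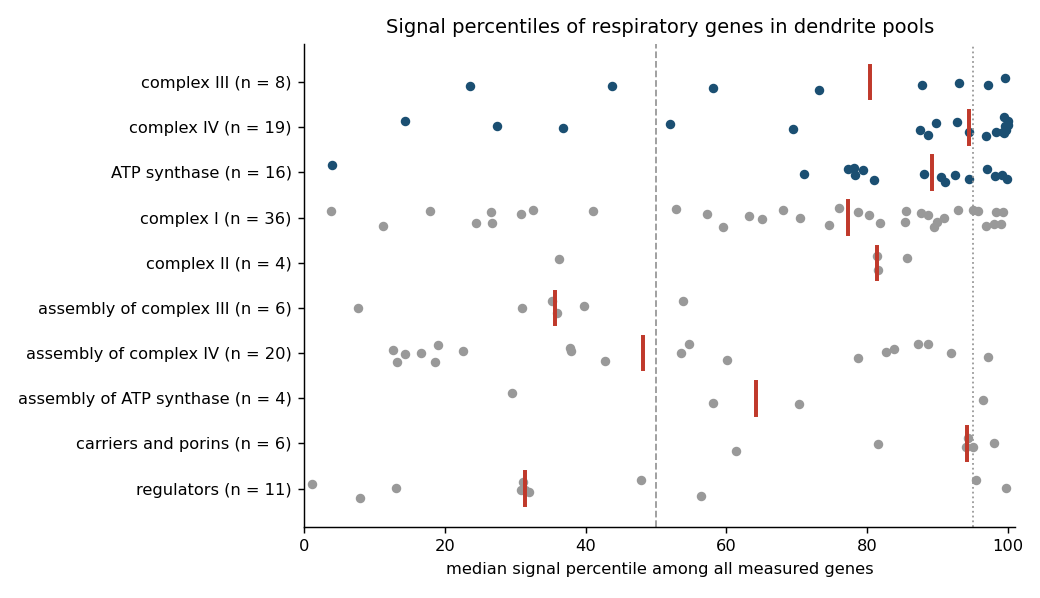
Signal percentile (horizontal axis) of each gene in the 3 complexes (dark points) and in other lists of the pathway (grey points), with the median of each list as a vertical bar. The dashed line marks 50 and the dotted line 95, and the median is 94.5 for complex IV and 48.1 for its assembly factors.

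The pool sizes were then compared to ask whether any subunit gene followed the number of dendrites collected. None of the 43 genes passed an adjusted p of 0.05 in limma in any of the 3 comparisons, and neither did any of the 14217 genes (0% called in each). At an unadjusted p under 0.05, limma gave 1 of the 43 genes (2.33%) for 400 against 100, where 2.41% of all genes passed. It gave none of the 43 for 200 against 100 and for 400 against 200, where 3.03% and 2.3% of all genes passed. The members' counts were therefore no higher than those of the array as a whole. Over the 43 genes, the median SE was 0.47 and the median half-width of the 95% interval was 1.03 on the log2 scale. That interval is not adjusted for the number of genes tested. Differences above 1.03 also failed the adjusted threshold, such as 1.36 for Uqcr11 in 400 against 100.

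The gene with the smallest p was Uqcr11, the small complex III subunit, for 400 against 100 dendrites. It averaged 11.29 ± 0.05 at 400 and 9.93 ± 1.03 at 100 (SD, n = 3 each), a difference of 1.36 (SE 0.57, 95% interval 0.13 to 2.60, limma adjusted p = 0.999). All 3 arrays of 400 were above all 3 of 100. Its unadjusted p in limma was above 0.05 without the first array of 100 (0.113), without the second of 100 (0.124) and without any single array of 400 (0.0612 to 0.0694). Without the third array of 100, the 1 at 11.12, the difference was 1.96 with an unadjusted p of 0.00346 and an adjusted p of 0.9997 in limma. Next was Cox5b, a nuclear subunit of complex IV, with 9.25, 9.20 and 9.78 at 400 and 9.21, 8.28 and 8.17 at 100. At 200 dendrites it gave 9.34, 8.24 and 8.93. The pools of 400 and 100 overlapped, and the difference was 0.85 (SE 0.43, 95% interval -0.08 to 1.79, limma adjusted p = 0.999).

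For 200 against 100 dendrites, the smallest p values were those of Cox7b2, with a difference of 1.03 (SE 0.73, 95% interval -0.57 to 2.63, limma adjusted p = 0.9999), and of Atp5f1e. Atp5f1e, which encodes subunit epsilon of the central stalk, gave 9.87, 9.54 and 9.89 at 200 and 10.30, 10.15 and 10.32 at 100. The arrays of 200 were all below those of 100, with a difference of -0.49 (SE 0.37, 95% interval -1.29 to 0.32, limma adjusted p = 0.9999). For 400 against 200, Atp5f1e had 11.10, 10.38 and 10.02 at 400, all above the values at 200, and a difference of 0.73 (SE 0.37, 95% interval -0.08 to 1.54, limma adjusted p = 0.999). Atp5f1d, subunit delta beside it in the stalk, had 8.41, 9.91 and 10.13 at 400 and 8.07, 8.77 and 8.10 at 200. The difference was 1.17 (SE 0.56, 95% interval -0.05 to 2.38, limma adjusted p = 0.999), and the pool sizes overlapped through the first array of 400. At 100 dendrites Atp5f1d gave 9.35, 7.53 and 8.54. These comparisons share arrays, so the values of Atp5f1e in the last 2 are not independent.

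Complete separation of the pool sizes was counted for each comparison and direction, beside the share of all genes. For 400 against 100, every array of 400 was higher for Uqcr11 alone, 1 of 43 (2.33%), against 3.67% of all genes, and lower for none of the 43, against 2.58%. For 200 against 100, every array was higher for Atp5me and lower for Atp5f1e, 2.33% each, against 4.05% and 3.75% of all genes. For 400 against 200, every array was higher for Uqcr11 and Atp5f1e and lower for Atp5me and Cyc1, 4.65% in each direction, against 3.59% and 3.18% of all genes. The separation of Atp5me at 200 dendrites spanned little, with means of 11.51 ± 0.07 at 200 and 11.36 ± 0.06 at 100 (SD, n = 3 each).

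**Figure D4:**
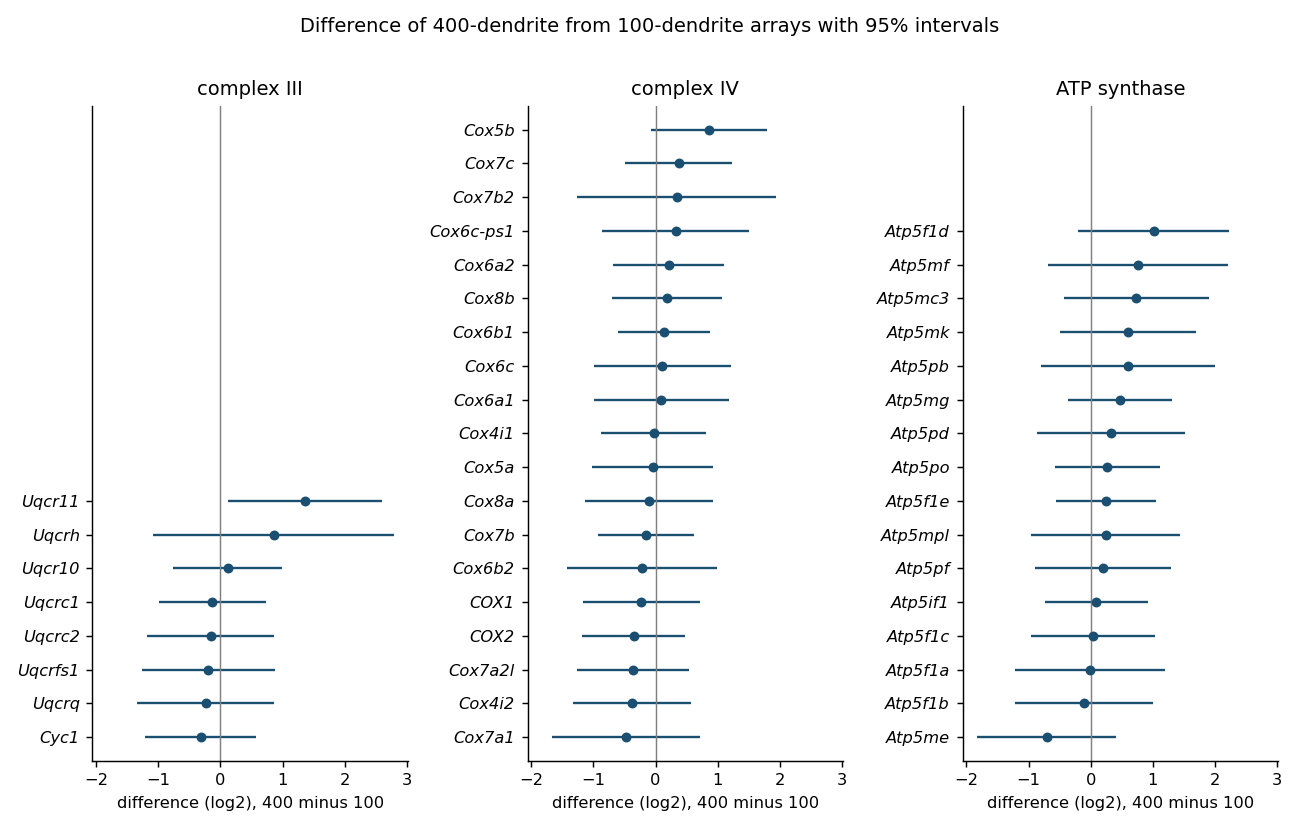
Difference in signal (log2, 400 minus 100 dendrites, horizontal axis) of each of the 43 genes by complex, with 95% intervals from limma. The interval of Uqcr11, 0.13 to 2.60, is the only one that does not reach 0.

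The complexes showed different median differences, each smaller than the SD between arrays of 1 pool size of the complex's median signal. That SD was 0.47 for ATP synthase, 0.69 for complex III and 0.37 for complex IV. It is taken on the median of signals over genes, while each difference is a median of differences within genes, so the measures are unlike. For 400 against 100, the median difference was 0.26 over ATP synthase genes, with 13 of 16 higher, -0.15 over complex III, with 3 of 8 higher, and -0.03 over complex IV, with 9 of 19 higher. Over all genes it was 0.02, with 51.5% higher. For 400 against 200, it was 0.23 over ATP synthase, with 13 of 16 higher, -0.07 over complex III and -0.07 over complex IV, against 0.01 over all genes. For 200 against 100, it was 0.13 over ATP synthase, 0.18 over complex III and 0.11 over complex IV, against 0.00 over all genes. The ATP synthase values rested on single arrays. Without the second array of 400, the median difference of ATP synthase genes was 0.04 for 400 against 100 and -0.14 for 400 against 200, and without the first array of 400 it was 0.60 and 0.65. For complex III, leaving out the first array of 400 gave 0.22 for 400 against 100 and 0.28 for 400 against 200.

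The ATP synthase genes stood high or low together on some arrays. On the second array of 400, 16 of 16 ATP synthase genes were above their own 9-array mean, with a median deviation of 0.67, and 9 of the 16 had their highest value there, against 10.4% of all genes. On the third array of 400, 13 of 16 were above their mean with a median deviation of 0.43, and on the third of 200, 12 of 16 with 0.43. On the first array of 400, 1 of 16 was above its mean, the median deviation was -0.67 and 7 of the 16 had their lowest value there, against 15.1% of all genes. The exception on that array was Atp5f1e, which was at its highest there, as was Cox4i1 of complex IV. All-gene medians moved little, between -0.02 and 0.06, on the 9 arrays. Of all genes, 53.7%, 48.3% and 53.3% were above their own mean on arrays 1, 2 and 3 of 400. On the third array of 200, 48.6% were. In complex IV the median deviation stayed between -0.26 and 0.26, and in complex III between -0.21 and 0.37. Over the 12 complex IV genes left without the tissue-restricted forms and the pseudogene, it was 0.05 on the third array of 200. Over the same 12 genes it was -0.37, 0.06 and 0.32 on arrays 1, 2 and 3 of 400. Shifts of like direction were seen in some other lists of the pathway and not in others. Over the 4 small subunits of complex III the median deviation was 0.47 on the third array of 200 and -0.55, 0.61 and 0.56 on arrays 1, 2 and 3 of 400. Over the 6 carriers and porins it was 0.81 on that array of 200 and -0.38, 0.72 and 0.37 on those of 400. Over the 4 genes of complex II it was -0.31 on that array of 200 and -0.78, 0.46 and 0.54 on those of 400, and over the 36 of complex I it was 0.16, and -0.18, 0.23 and 0.23. Over the 4 catalytic and core genes of complex III, the values in the same order were 0.02, -0.21, -0.44 and 0.07. Assembly factors gave -0.0002, -0.18, -0.22 and 0.12 for complex IV and -0.04, 0.25, -0.28 and -0.07 for ATP synthase. Those of complex III gave 0.05, 0.45, -0.11 and 0.18, and the 11 regulators gave -0.24, 0.06, 0.21 and 0.14. COX1 and COX2 were at their lowest on the second array of 400, where the ATP synthase genes were high.

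Several ATP synthase genes spanned a wide range in this way. Atp5pb, subunit b of the peripheral stalk, gave 8.81, 8.56 and 8.03 at 100 dendrites, 8.58, 8.14 and 9.77 at 200 and 7.52, 10.13 and 9.56 at 400. Atp5pd, subunit d, gave 10.68, 10.77 and 11.61 at 100, 10.71, 10.86 and 11.79 at 200 and 10.12, 12.11 and 11.82 at 400. Within the pools of 400, both had their lowest and highest values of all 9 arrays. The median SD within pool sizes was 0.70 over ATP synthase genes, 0.62 over complex III and 0.51 over complex IV, against 0.56 over all genes. The difference between the 3′ and 5′ control probe sets of Gapdh, a measure of how short the labelled RNA was, was 2.24, 2.42 and 0.84 on arrays 1, 2 and 3 of 400 and ran from 0.84 to 2.99 over all arrays. The same difference for Actb was 0.54, 2.41 and -0.35 on those arrays and ran from -0.43 to 2.41 over all arrays. The part of RNA length in these shifts was not tested.

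**Figure D5:**
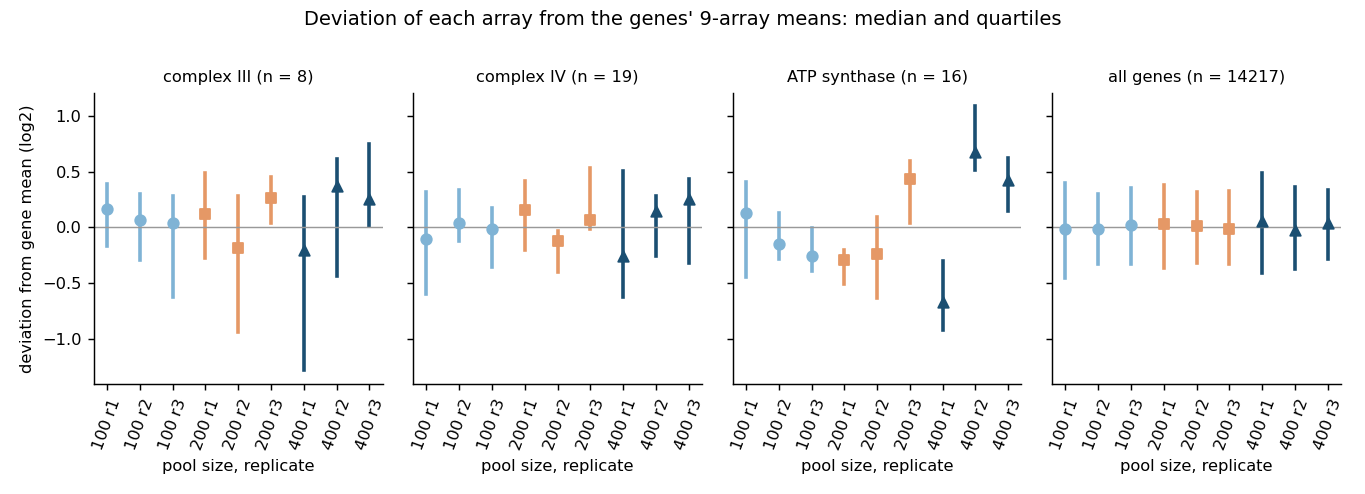
Deviation of genes from their own 9-array means (log2, vertical axis) on each array, for complex III, complex IV, ATP synthase and all 14217 genes. Points are medians over genes and bars span the quartiles, and ATP synthase lies at -0.67, 0.67 and 0.43 on the 3 arrays of 400 dendrites.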

How the data were processed

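RNA of 9 dendrite pools was measured on rat expression arrays of short oligonucleotide probes. The deposited values are log2 signals per probe set, which the authors made with RMA; the submitters' processing notes name version 2.0. The deposited table holds 31099 probe sets, and 57 control probe sets were left out. The platform annotation named 1 gene for 20826 of the other 31042, several for 436 and none for 9780. Symbols were updated to RefSeq GRCr8 for 20758 probe sets and kept for 68. A gene's value is the median of its probe sets, for 14217 genes, and no filter on low values was applied. Background correction and normalization across arrays can compress differences, and no read depth exists for arrays, so their number limits the precision.

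Pool sizes were compared with limma 3.58.1 in R 4.3.3 on all 9 arrays with 1 mean per pool size, two-sided, with Benjamini-Hochberg adjustment over all genes and a threshold of 0.05. The fit was tested on simulated data. Percentiles, figures and counts were made with Python 3.11.15, pandas 2.3.3, numpy 2.4.6 and matplotlib 3.10.9. Every member is named with its percentile. Values on all arrays are given for the 3 highest and 2 lowest genes of each complex, COX1, COX2, Cycs, paralog pairs, the 2 smallest p values of each comparison, the 2 largest and 2 smallest SDs and genes whose probe sets differ by over 25 percentile points; Atp5pb and Atp5pd were added after their values were seen. The members, lists and tests were chosen with earlier results of these data known. Alternatives were another normalization or scaling, other choices of probe sets and genes, other limma settings, the methods' t-test, a replicate block and leaving out each array.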

Additional observations from a re-analysis of the deposited data

How the results depend on the processing

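No gene and no member passed the adjusted threshold in any comparison under any alternative, with or without the replicate block, which gave 0 calls in each. At an unadjusted p under 0.05, limma gave 342 genes for 400 against 100, 431 for 200 against 100 and 327 for 400 against 200, the methods' t-test 408, 488 and 409, and limma with the replicate block 362, 437 and 336. Same-numbered arrays of different pool sizes had residual correlations of -0.19 to 0.09, and differently numbered arrays -0.19 to 0.22. Residuals from pool means balance within a pool size, so these ranges do not show whether same-numbered arrays shared a culture or animal. The median percentile of complex III genes was 72.2, that of complex IV genes 90.2 and that of ATP synthase genes 84.3 with the probe set of highest mean taken for each gene, and complex IV reached 99.3 without the tissue-restricted paralogs. Leaving out single arrays gave medians of 78.1 to 81.8 for complex III, 94.5 to 94.9 for complex IV and 88.4 to 90.6 for ATP synthase, and 15 members in the top 5% each time. Other alternatives gave 13 to 17.

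The median difference of ATP synthase genes ran from 0.04 to 0.60 for 400 against 100, from -0.08 to 0.18 for 200 against 100 and from -0.14 to 0.65 for 400 against 200 as single arrays were left out. For complex III these ranges were -0.24 to 0.22, -0.10 to 0.25 and -0.37 to 0.28, and for complex IV -0.11 to 0.09, 0.00 to 0.17 and -0.18 to -0.02. The unadjusted p of Uqcr11 for 400 against 100 was 0.0846 in the methods' t-test. All 6 named differences kept their sign in 119 alternative fits. Some of these fits could not change a difference, such as other limma settings for the spread or the replicate block. The same holds for leaving out an array of the pool size not compared. The 6 were also chosen as the smallest p values of these data, so the count is no test of them. With 3 arrays a pool size, differences under about 1.03 on the log2 scale lay within a typical interval.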
